A study of Homo sapiens with 4 samples.

Results

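Stable far-distal MTF-1 sites are stretches of the genome that were called in both control and cadmium-resistant MDA-MB-231 cells over nearly the same length, far from any annotated transcript start. The members were chosen by their measured length: peaks of both conditions that shared at least 1 base were merged, and a merged site was kept when it was under 8000 bp, lay with its centre over 10 kb from every GENCODE 44 transcript start, and had a covered length in either condition of at least 0.8 times that in the other. On chromosomes 1 to 22 and X, 5103 of the 77070 merged sites met this rule, which is 6.62% of all sites and 32.7% of the 15600 far-distal sites under 8000 bp that were called in both conditions. The length ratio is therefore given only as a description. The tests concern sequence, which the rule did not use, and position in genes, which the rule touches through the transcript starts it measures from.

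MDA-MB-231 cells are a cultured line from a triple-negative human breast tumor. MTF-1 was profiled by CUT&RUN, in which nuclease bound to an antibody cuts the DNA next to the antibody's target, in 2 control libraries from untreated cells and in 2 libraries from cells grown long term in cadmium sulfate at 10 µM. No genetic change is named for either group, and both came from this 1 line. The replicates of each condition were merged by the authors before peaks were called, so each condition gave 1 list, 69299 peaks in control and 60130 in cadmium, and from these lists the spread between replicates cannot be measured and the depth is unknown. Each test below compares classes of sites within these 2 lists and has no replicates of the conditions behind it. Neighboring sites are not independent, so the intervals cover counting error only.

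MTF-1, a DNA-binding protein with zinc fingers, responds to zinc and cadmium and induces metallothioneins through metal response elements (MREs). Distal sites of many factors in epithelial cancer cells fall in enhancers, where AP-1 (dimers of FOS and JUN proteins), TEAD proteins (the DNA-binding partners of YAP and TAZ) and RUNX proteins often bind near each other. Forkhead proteins bind A- and T-rich elements and CTCF binds boundaries of chromatin loops. Here each motif was searched on both strands as plain letters: TGACTCA (the same as TGAGTCA on the other strand) for AP-1, GGAATG for TEAD, TGTGGT for RUNX, the forkhead letters GTAAACA with the variant GTAAATA, the variant ATAAACA and the variant ATAAATA, the MRE core as TGCACNC or with G in place of the A, and the core of the CTCF motif. A match shows that the letters are there, and not that a factor was bound.

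The sequences below show what lies at the middle of these sites. For 4 searches, the member with the same start and end in both conditions whose motif lay closest to its centre, or the widest of those tied (10 for AP-1, 6 for the MRE core), is shown as 150 bp of hg38, plus strand, with the motif in capitals. The AP-1 example is chr2:113818625-113818774, the TEAD with AP-1 example chr20:25174025-25174174, the CTCF example chr14:70714125-70714274 and the MRE core example chr17:77834325-77834474, each between genes.
AP-1: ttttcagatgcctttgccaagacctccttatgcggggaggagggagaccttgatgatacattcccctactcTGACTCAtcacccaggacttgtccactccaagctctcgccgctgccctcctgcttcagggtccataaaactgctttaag
TEAD with AP-1: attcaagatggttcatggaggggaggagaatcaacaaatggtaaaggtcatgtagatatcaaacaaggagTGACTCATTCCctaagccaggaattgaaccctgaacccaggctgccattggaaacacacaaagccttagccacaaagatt
CTCF: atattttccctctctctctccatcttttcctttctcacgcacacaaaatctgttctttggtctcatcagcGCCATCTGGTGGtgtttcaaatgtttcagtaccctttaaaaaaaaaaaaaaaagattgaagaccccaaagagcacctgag
MRE core: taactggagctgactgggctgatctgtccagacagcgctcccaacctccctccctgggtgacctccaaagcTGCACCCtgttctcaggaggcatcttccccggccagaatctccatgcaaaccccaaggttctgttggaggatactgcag
In the TEAD example both motifs overlap by 2 letters in the run TGACTCATTCC.

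The members were mostly short, and most were called over exactly the same bases in both conditions. The median member spanned 999 bp (quartiles 599 and 1799, lowest 199, highest 7999). Control peaks covered 6.49 Mb of the members in sum and cadmium peaks 6.39 Mb. Covered length was equal in 3483 members (68.3%), shorter in cadmium in 954 and longer in 666, and both start and end were identical in 3028 (59.3%). Peaks in both lists begin and end on a grid of 200 bp, and each is listed 1 base short of whole bins. A site of 799 bp in 1 condition and 999 bp in the other, which is 0.8 in whole bins, thus fell just outside the band. With lengths taken this way, a member of at most 5 grid bins could enter only with equal cover, which all 2688 such members had. Of the 2415 wider members, 795 (32.9%) had equal cover. An edge moved in 2075 members, in 513 the left alone, in 550 the right alone and in 1012 both, by a median of 200 bp for each moved edge. In 892 of those 1012 both edges shifted the same way along the chromosome, while in 81 both moved inward in cadmium and in 39 both moved outward; the rule limits the last 2 kinds. Just inside the threshold lay members with a ratio of 0.80020 and 1.23536, and just outside it sites at 0.79996 (4999 bp in control, 3999 bp in cadmium) and 1.25004. In 4968 members, 1 control peak met 1 cadmium peak.

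**Figure D1:**
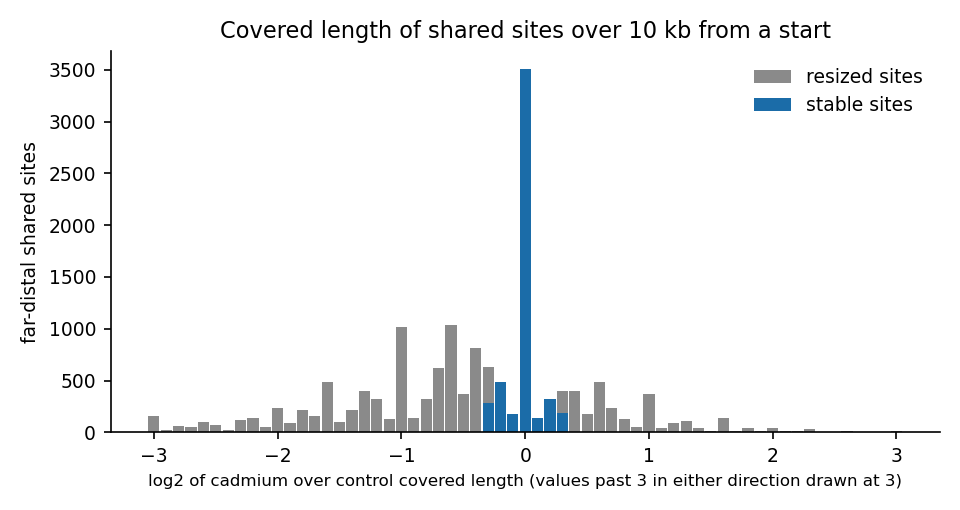
Number of far-distal sites called in both conditions (y axis) by the log2 ratio of cadmium over control covered length (x axis), with stable sites in blue and resized sites, whose ratio fell outside the band, in gray. The members form the spike at 0 and the bars beside it, and of the 10497 resized sites 7807 were shorter in cadmium and 2690 longer.

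The members lay a median of 23189 bp from the nearest transcript start (quartiles 14879 and 41654). By distance, 2154 members (42.2%) lay 10 to 20 kb away, 1937 (38.0%) 20 to 50 kb, 634 (12.4%) 50 to 100 kb, 195 (3.82%) 100 to 200 kb, 37 between 200 and 500 kb and 146 farther than 500 kb. Introns held 2486 members (48.7%, 95% Wilson interval 47.3 to 50.1), sites overlapping no gene 2293 (44.9%, 43.6 to 46.3) and sites overlapping an exon 324 (6.35%, 5.71 to 7.05). Of the 4 members tied as widest at 7999 bp, chr5:142821001-142828999 in an intron of ARHGAP26 was covered over 7999 bp in control and 6799 bp in cadmium, and chr14:99751801-99759799 in an intron of EML1 over 6598 and 7199 bp. At the other end, a single-copy member of 199 bp in both conditions lay in an intron of LINC02476, at chr7:119720601-119720799, 187 kb from the nearest start.

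Sequence and annotation were compared with 3 other classes of far-distal sites under 8000 bp, namely 9616 peaks called only in control (lost), 3982 called only in cadmium (gained) and the 10497 shared sites whose length ratio fell outside the band (resized), and with 11754 stable sites within 10 kb of a start (near). Each comparison is a Mantel-Haenszel odds ratio of the member share over the other share, with site width in 200 bp bins as the stratum, and a two-sided Cochran-Mantel-Haenszel test with adjustment over 56 motif tests or 12 annotation tests. The width strata matter because the classes differed in median width, at 799 bp in lost, 599 bp in gained, 1399 bp in resized and 1799 bp in near sites.

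By annotation, the intronic share did not differ between stable and lost sites past the test (48.7% against 50.7%, odds ratio 0.952, 95% interval 0.889 to 1.02, adjusted chi-square p = 0.219), although with only protein-coding starts counted it did (odds ratio 0.882, adjusted p = 5.40e-05). Members overlapped no gene slightly more often than lost sites (odds ratio 1.09, adjusted chi-square p = 0.0257; past the test neither with GC strata, single-copy sites or protein-coding starts nor over 20 kb from a start) and an exon slightly less often (0.848, adjusted p = 0.0464; not past the test without strata, with GC strata or over 20 kb from a start; with only protein-coding starts counted the exon odds ratio was 1.29, adjusted p = 4.07e-09). GC content differed more. At least 50% G and C in the central 500 bp was found in 25.2% of members, 16.9% of lost and 34.7% of gained sites, with odds ratios of 1.53 (1.40 to 1.67, adjusted chi-square p = 1.10e-21) against lost and 0.383 (0.345 to 0.426, adjusted p = 1.77e-72) against gained sites. The median GC content was 44.6% in members, 42.2% in lost, 47.0% in gained and 54.8% in near sites. Against resized sites the odds ratio was 1.37 (adjusted chi-square p = 5.53e-13), and it was 0.976 without the width strata (adjusted exact p = 0.544).

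A small group of members stood apart and touches several results. To find repeats, 31-base strings of a site were sampled every 20 bases, and the places in hg38 that hold each were counted. This check was added after the data were seen. Sites with a median of 1 place are called single-copy, which does not mean free of repeats and leaves the rest of a wider site unchecked. A median above 1 place was found in 461 members (9.03%, 8.28 to 9.85). The share was 9.04% in lost (odds ratio 1.01, adjusted chi-square p = 0.834), 7.31% in gained (1.23, adjusted p = 0.0253) and 7.34% in resized sites (1.16, adjusted p = 0.0459). All but 2 of the 146 members over 500 kb from a start were of this kind, with a median of 1906 places. They lay on 9 chromosomes, 82 of them on chromosome 1 between 122404201 and 124908999, 17 on chromosome 7 between 58349601 and 60517999 and 12 on chromosome 17 between 24188001 and 26229199, next to or in centromeres, where tandem satellite repeats lie. The 3 members farthest from any start, at 3328, 3202 and 3198 kb, were among those on chromosome 1. An AP-1 motif was found in 0 of these 146, RUNX in 9, forkhead in 21, and TEAD and the MRE core in 38 each. For independent sites, 0 of 146 would allow a share of up to 2.05%, but repeated sequences are not independent. Sites over 500 kb from a start made up 2.86% of stable, 2.64% of lost, 0.377% of gained and 1.09% of resized sites. Reads from such repeats cannot be placed uniquely, and the part of this in the calls was not tested.

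The farthest single-copy member, chosen after its values were seen, shows how letters of a motif can come from a repeat. It is chr5:49599401-49603199, 811 kb from the nearest start and 3799 bp long in both conditions, and 48 TEAD motifs were counted in its central 500 bp. Its central 150 bp, chr5:49601225-49601374, hold 18 of them in a tandem GGAAT repeat, the unit of a human satellite:
TEAD in satellite: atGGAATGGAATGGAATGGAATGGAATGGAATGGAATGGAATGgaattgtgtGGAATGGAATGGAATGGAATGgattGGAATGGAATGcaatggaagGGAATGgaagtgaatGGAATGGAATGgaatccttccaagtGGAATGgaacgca

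AP-1 letters were found in 1924 members, 37.7% (36.4 to 39.0), against 24.8% of all 77054 sites on these chromosomes. The share was 26.5% in lost, 35.8% in gained, 30.1% in resized and 19.8% in near sites. At equal width, members held the motif more often than lost sites (odds ratio 1.89, 1.75 to 2.04, adjusted chi-square p = 3.30e-60), than gained sites (1.49, 1.35 to 1.63, adjusted p = 1.41e-15) and than near sites (1.58, 1.46 to 1.71, adjusted p = 9.06e-31). The difference from gained sites rests on the width strata, since without them the odds ratio was 1.08 (adjusted exact p = 0.133). Against near sites the odds ratio fell to 1.41 with strata of GC content (adjusted chi-square p = 2.15e-17). With strata of width and GC content it was 1.210 (1.115 to 1.312, adjusted chi-square p = 2.42e-05). Against resized sites the odds ratio was 1.16 (adjusted chi-square p = 8.27e-04), and it turned to 0.719 (adjusted p = 2.57e-16) when the window was centred on the bases covered in both conditions in place of the merged site, an alternative added after the data were seen. The direction against resized sites thus depends on where a resized site is taken to be centred. In single-copy members the AP-1 share was 39.7%, and the odds ratio against single-copy lost sites was 1.95.

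Forkhead letters went the other way against lost sites. They were found in 1691 members, 33.1% (31.9 to 34.4), against 43.9% of lost (odds ratio 0.657, 0.612 to 0.706, adjusted chi-square p = 5.93e-30), 28.5% of gained (1.37, 1.24 to 1.51, adjusted p = 8.14e-10), 34.3% of resized (0.910, adjusted p = 0.0361) and 20.6% of near sites (1.60, adjusted p = 1.64e-33); over all sites the share was 30.2%. With GC content as a second stratum the odds ratio was 0.744 against lost (adjusted chi-square p = 2.45e-13), but 1.01 against gained and 0.979 against near sites (adjusted p = 0.777 for near sites), so only the difference from lost sites remained past the test there.

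For TEAD and RUNX letters no difference from lost sites passed the test. TEAD letters were in 1780 members, 34.9% (33.6 to 36.2; 30.2% of all sites), against 34.2% of lost sites (odds ratio 1.06, 0.986 to 1.14, adjusted chi-square p = 0.197) and 31.9% of gained sites (1.24, 1.13 to 1.36, adjusted p = 1.88e-05). RUNX letters were in 1921 members, 37.6% (36.3 to 39.0; 33.3% of all sites), against 37.8% of lost sites (odds ratio 1.01, 0.937 to 1.08, adjusted chi-square p = 0.930). Both were more common than in near sites, with odds ratios of 1.31 for TEAD (adjusted chi-square p = 9.17e-12) and 1.37 for RUNX (adjusted p = 1.19e-16), which came to 1.08 and 1.07 and missed the test with strata of width and GC content (adjusted p = 0.155 and 0.196).

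CTCF letters were rare, and members held them more often than lost sites. They were in 118 members, 2.31% (1.93 to 2.76), against 107 of the 9616 lost sites (odds ratio 2.31, 1.77 to 3.01, adjusted chi-square p = 1.89e-09), 1.88% of gained (1.69, 1.24 to 2.29, adjusted p = 0.00255) and 1.86% of all sites. Against resized sites the odds ratio was 0.965 (adjusted chi-square p = 0.908), and against near sites it was 0.753, lower in members (adjusted chi-square p = 0.0378; 1.20 without width strata and 1.108 with GC strata). The difference from near sites missed the test in single-copy sites (0.795, adjusted chi-square p = 0.116) and with protein-coding starts (0.791, adjusted p = 0.0720). It also missed with strata of width and GC content (0.860, adjusted chi-square p = 0.416) and in whole sites (0.869, adjusted p = 0.164). The difference from gained sites missed the test without width strata (odds ratio 1.23, adjusted exact p = 0.263), with GC strata, with protein-coding starts and in 200 bp.

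For the MRE core, the element MTF-1 is named for, no difference from lost sites passed the test as set, and the direction varied with the setting. It was found in 1413 members, 27.7% (26.5 to 28.9), against 26.4% of lost (odds ratio 1.02, 0.948 to 1.107, adjusted chi-square p = 0.633), 27.7% of gained (0.874, adjusted p = 0.0192), 42.1% of near sites (0.635, 0.589 to 0.684, adjusted p = 1.20e-31) and 33.9% of all sites. With protein-coding starts it was past the test at 1.113 against lost sites, while with strata of GC content it turned to 0.898 (adjusted chi-square p = 0.0266) and 1.13 against gained sites (adjusted p = 0.0423). Members with more than 1 genomic copy held the core in 216 of 461 (46.9%), and single-copy members in 1197 of 4642 (25.8%). The longer TGCACACG, which contains an MRE core, was in 53 members (1.04%; 0.918% of all sites) against 0.645% of lost sites (odds ratio 1.55, 1.07 to 2.24, adjusted chi-square p = 0.0489). It missed the threshold in single-copy sites (1.55, adjusted chi-square p = 0.0542), in 200 bp (1.17, adjusted p = 0.778) and around the bases in both lists (1.54, adjusted p = 0.0568).

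Motifs typical of promoters were less frequent in members than in near sites. The rule split these classes by distance from starts, where promoters lie, so this contrast is a description. The GC box GGGCGG, bound by SP and KLF proteins, was in 574 members (11.2%; 21.3% of all sites) and in 43.2% of near sites (odds ratio 0.229, 0.208 to 0.253, adjusted chi-square p = 5.58e-216). CCGGAA, bound by ETS proteins, was in 292 members (5.72%; 9.12% of all sites) and in 17.5% of near sites (0.340, 0.298 to 0.388, adjusted chi-square p = 2.96e-59). With strata of GC content these came to 0.635 for the GC box and 0.645 for ETS, both still past the test. Against lost sites the GC box gave 1.47 (adjusted chi-square p = 4.83e-10) and ETS 1.44 (adjusted p = 2.30e-05), and with strata of GC content the GC box came to 1.05 (adjusted p = 0.618). TGACNNNGC, the antioxidant response element bound by NRF2, which can overlap an AP-1 site, was in 1099 members (21.5%; 20.4% of all sites) and 17.7% of lost sites (1.28, 1.17 to 1.39, adjusted chi-square p = 8.44e-08).

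**Figure D2:**
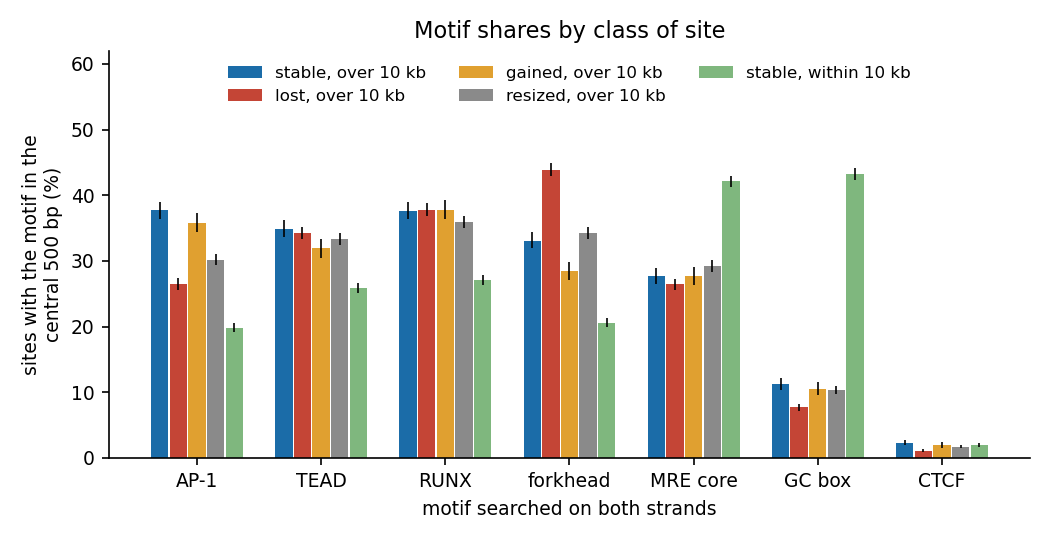
Percent of sites (y axis) with each motif (x axis) in the central 500 bp, for stable sites over 10 kb from a start, for lost, gained and resized sites over 10 kb from a start and for stable sites within 10 kb. Bars start at 0 and lines are 95% Wilson intervals; members stand at 37.7% for AP-1 against 26.5% in lost sites, and at 33.1% for forkhead against 43.9%.

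The AP-1 share differed between narrow and wide members. It was 46.5% (43.6 to 49.3) in the 1188 members of 199 to 399 bp, 52.1% (48.7 to 55.5) in the 819 of 599 bp and 47.7% in the 681 of 799 to 999 bp, then 29.1% in the 1075 of 1199 to 1599 bp, 24.0% in the 622 of 1799 to 2399 bp and lowest in the 718 of 2599 to 7999 bp, where its interval was 19.1 to 25.2%. The central 500 bp is a shrinking part of a wider site, and with the whole site searched the share rose with width, from 53.0% at 599 bp to 76.7% at 2599 to 7999 bp. Lost sites held AP-1 less often at each width, from 38.4% in the shortest to 11.1% in the widest. The forkhead share of members stayed between 28.0% and 35.5% over the 6 width groups, while that of lost sites fell from 50.2% to 27.7%. CTCF letters were in 4.29% of the shortest members and 0.418% of the widest.

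**Figure D3:**
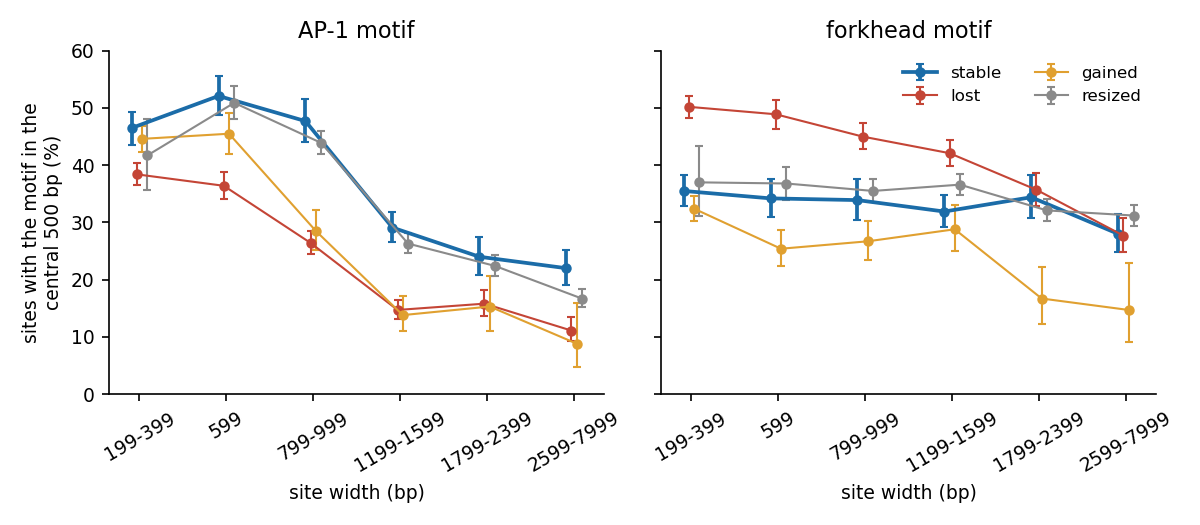
Percent of far-distal sites with AP-1 (left) or forkhead (right) letters in the central 500 bp (y axis) by site width in bp (x axis), for stable, lost, gained and resized sites, with 95% Wilson intervals. The AP-1 share of stable sites lies above that of lost sites in all 6 width groups, and the forkhead share lies below it in all but the widest group.

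Distance from a start went with smaller changes. From 10 to 20 kb up to 100 to 200 kb, median width fell from 1199 to 599 bp and median GC content from 45.8% to 41.4%. The AP-1 share was 36.9% (795 of 2154) at 10 to 20 kb, 39.0% (756 of 1937) at 20 to 50 kb, 42.6% (270 of 634) at 50 to 100 kb and 46.7% (91 of 195) at 100 to 200 kb, but 32.4% (12 of 37) at 200 to 500 kb. The MRE core went from 30.5% (656 of 2154) at 10 to 20 kb to 21.5% (42 of 195) at 100 to 200 kb and was 32.4% (12 of 37) at 200 to 500 kb. These shares were not tested, and width and GC content move with them.

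In the 500 bp window around the member centre, AP-1 letters gathered in the middle. This window reaches past the 1188 members of 199 to 399 bp, so for them it sets the site partly or wholly against sequence outside it. Per 1000 members and 50 bp, 68.5 AP-1 motifs lay in the central 200 bp and 30.3 at 100 to 250 bp, a ratio of 2.26 (2.08 to 2.46). That ratio was 2.64 (2.39 to 2.91) in gained, 1.98 (1.84 to 2.14) in lost, 1.31 (1.22 to 1.39) in resized and 1.81 in near sites. The ratios in this paragraph were not adjusted for site width, which differed between the classes. In resized sites they also depend on where the site is taken to be centred. Differences between classes in these ratios were not tested. TEAD at 1.27 (1.18 to 1.37) and RUNX at 1.30 (1.20 to 1.40) showed a weaker rise, CTCF a ratio of 2.07 (1.44 to 2.98), and forkhead a dip, at 0.888 (0.816 to 0.966), where lost sites gave 1.13 (1.07 to 1.18) and gained sites 0.784 (0.705 to 0.871). TEAD gave 1.27 in lost and 1.23 in gained sites, RUNX 1.33 and 1.32, and CTCF gave 2.41 in lost sites and a higher ratio in gained sites. The MRE core gave 0.918 (0.835 to 1.01), so no gathering at the centre was detectable for it.

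**Figure D4:**
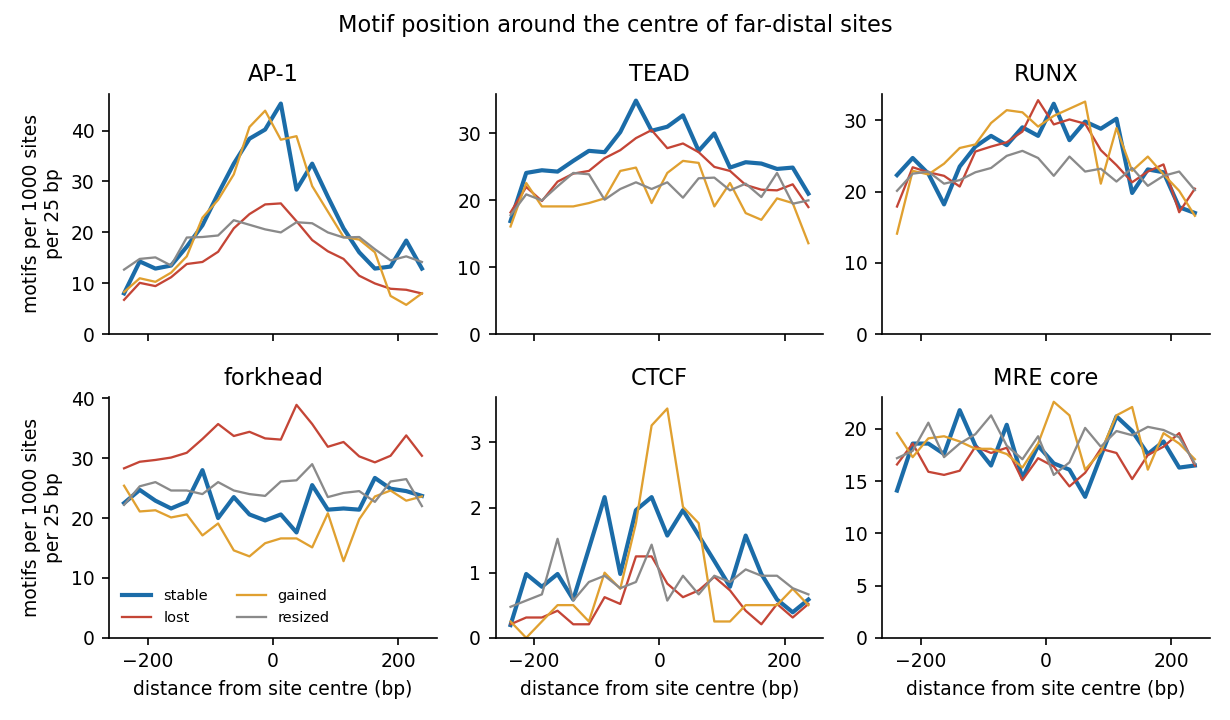
Number of motifs per 1000 sites in each 25 bp (y axis) by distance from the site centre in bp (x axis), for stable, lost, gained and resized far-distal sites. AP-1 in stable sites reaches 45.3 beside the centre and is 8.03 and 12.9 at the left and right ends, and the MRE core shows no peak.

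A search with no motif chosen gave the same leading string. Each of the 8192 distinct 7-base strings (with its reverse complement) was counted in members holding it only in the central 200 bp and in members holding it only in the 2 flanks of 100 bp that begin 150 bp from the centre, with an exact McNemar test adjusted over all strings. More members held the string at the centre for 103 of them (1.26% of the strings tested) and in the flanks for 61 (0.745%). For members of 199 to 399 bp, these flanks lay partly or wholly outside the member. TGACTCA came first, with 1155 members holding it only at the centre and 414 only in the flanks (adjusted exact p = 4.59e-77). Of the 103, 30 held at least 5 consecutive letters of AP-1, among them ATGACTC (578 against 224, adjusted exact p = 3.12e-33) and TGACTAA (320 against 151, adjusted p = 5.63e-12), 4 held TEAD letters and 2 RUNX letters, led by AACCACA (410 against 222, adjusted p = 5.49e-11). Over all 8192 strings, 128 hold 5 such letters of AP-1, 8 hold TEAD and 8 hold RUNX letters, and 67 of the 103 hold none of these. TGAATCA, which differs from AP-1 by a single letter, led the others (407 against 213, adjusted exact p = 5.63e-12). Of the 61 strings more frequent in the flanks, 38 were made of A and T alone, such as AAAATAT (293 against 442, adjusted exact p = 1.77e-05), while only 64 of all 8192 strings are.

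The letters around AP-1 were also counted. In the central 200 bp, 1398 AP-1 motifs were found in members, and the most frequent 9-letter forms were ATGACTCAT with 190 (13.6%), ATGACTCAG with 158 (11.3%) and GTGACTCAT with 149 (10.7%). ATGACTCAT was 2.97 times as dense per base at the centre as outside it, while TTGACTCAA, with 13 at the centre and 17 outside, was 1.15 times as dense. These ratios were not tested.

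Most members with AP-1 held it once. In the central 500 bp, 1596 members held 1 AP-1 motif, 288 held 2 and 40 held 3 or more. By combination, 241 members (4.72%) held AP-1, TEAD and RUNX letters, 425 (8.33%) AP-1 and TEAD without RUNX, 496 (9.72%) AP-1 and RUNX without TEAD, and 762 (14.9%) AP-1 alone. In contrast, 1878 (36.8%) held TEAD or RUNX without AP-1 and 1301 (25.5%) held none of the 3. In 6 tests added after the data were seen, each with width strata, TEAD was in 34.6% of members with AP-1 and 35.0% of those without (odds ratio 0.886, 0.783 to 1.00, adjusted chi-square p = 0.115), and RUNX in 38.3% and 37.2% (0.949, 0.841 to 1.07, adjusted p = 0.498). In single-copy members alone the same comparisons passed the test, with odds ratios of 0.843 for TEAD (adjusted chi-square p = 0.0238) and 0.871 for RUNX (adjusted p = 0.0486). CTCF letters were in 14 of 1924 members with AP-1 (0.728%) and 104 of 3179 without (3.27%), an odds ratio of 0.155 (0.0875 to 0.274, adjusted chi-square p = 4.61e-12).

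Many members had other far-distal sites nearby. Another stable site lay within 50 kb of 2035 members (39.9%, 38.5 to 41.2), a resized site within 50 kb of 2880 (56.4%), a lost site of 2288 (44.8%) and a gained site of 1127 (22.1%). Resized sites had a stable site within 50 kb in 36.7% (35.8 to 37.6), a lost site in 48.1% and a gained site in 21.6%. Among single-copy shared sites, 32.3% were stable, and the share by chromosome went from 20.1% (17.0 to 23.6) on chromosome 11 to 44.8% (40.3 to 49.4) on chromosome 13. Since the rule fixes which sites are stable, these shares are a description.

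By gene, 5568 of 19962 protein-coding genes (27.9%) had at least 1 member within 100 kb of a transcript start and 80 (0.401%) had at least 5. GSE1, which encodes a coiled-coil protein of a histone deacetylase complex, and NRP1, the co-receptor neuropilin 1 for VEGF and semaphorins, had 9 members each. BCAR3 (an adaptor protein named for anti-estrogen resistance), ZMIZ1 (a transcriptional coactivator) and RUNX1 (a member of the RUNX family itself) had 8 each. Next came ODC1 (the first enzyme of polyamine synthesis), SMURF2 (a ubiquitin ligase of TGF-beta signaling), PRKCH (a protein kinase C), OSBPL3 (an oxysterol-binding protein) and PRICKLE2 (a planar cell polarity protein), with 7 each. Long genes and genes with many starts have more room for members, and the counts were not corrected for this.

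The loci differed in how their members lay. At NRP1 2 members were in the gene and the others on both sides, and 4 sites between genes beyond its 3′ end, from chr10:33133801-33134799 to chr10:33155201-33157599, lay close together, with AP-1 letters in 3 of them. The first was covered over 999 bp in both conditions and the last over 2199 bp in control and 2399 bp in cadmium. All 8 members at BCAR3 lay inside the gene, 5 with AP-1 letters, and 4 of them had equal cover. The widest, chr1:93812601-93818799, was covered over 5799 bp in control and 5398 bp in cadmium. At RUNX1, 7 of 8 members lay inside its long transcribed region, among them 3 short sites of 399, 399 and 599 bp in both conditions at 496, 367 and 346 kb from its outermost start, each with 1 AP-1 motif. The 6 members at GSE1 that lay in the gene were all intronic. At ODC1 the 7 members lay outside the gene, 2 of them in introns of HPCAL1, and 1 held AP-1 letters; its widest, chr2:10532001-10539599, was covered over 7399 bp in control and 6198 bp in cadmium. The other classes of sites within the same reach varied, from 0 lost and 0 gained peaks and 5 resized sites at PRICKLE2 to 8 lost and 0 gained peaks and 5 resized sites at PRKCH. These genes were chosen for their number of members, so the counts are a description.

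**Figure D5:**
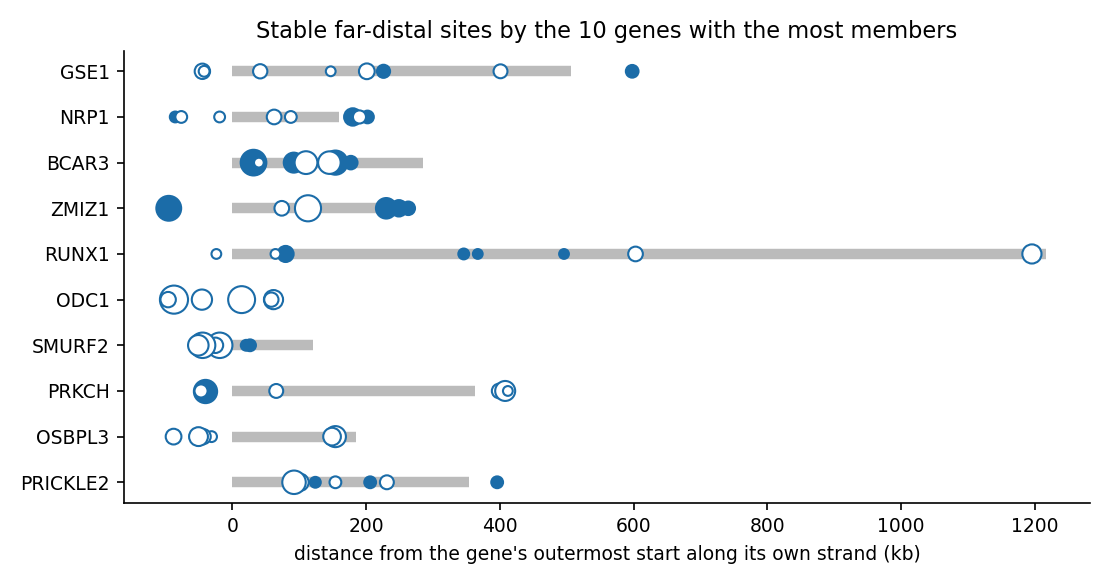
Position of the stable far-distal sites (circles) within 100 kb of any transcript start of the 10 genes with the most of them, by distance from the gene's outermost start along its own strand in kb (x axis); gray bars are the genes. Circle area grows with covered length and filled circles hold AP-1 letters; the 8 members at BCAR3 all lie on its bar, and those of ODC1 all beside it.

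Lists of genes were counted against the 27.9% of all protein-coding genes, with no test of the lists. Of 11 genes of AP-1 proteins, 6 had a member within reach (54.5%), with 3 each at FOS and ATF3, and all 6 of these had the same cover in both conditions. Neighboring genes can share a member, and 10 different members lay near the AP-1 genes. For example, 1 of those at ATF3 lay 12.8 kb from a start of BATF3. JUN had 1, while JUNB, JUND, FOSB and FOSL1 had 0. Of 19 forkhead genes, 11 had a member (57.9%, with 15 different members among them), led by FOXO3 with 4 and FOXN3 with 3. For the RUNX family this was 2 of 4 genes, namely RUNX1 with 8 and RUNX3 with 1, and for YAP and TEAD genes and targets it was 5 of 13 (38.5%), with 3 at AMOTL2, an inhibitor of YAP. Mesenchymal and invasion genes, which mark the basal state of this line, had 10 of 28 (35.7%), with 4 each at EGFR and TGFBI and 3 at CAV2, while VIM, ZEB2 and CD44 had 0. Luminal genes had 7 of 16 (43.8%), led by KRT8 and KRT18, which stand side by side and share the same 5 members. Of these members 4 had equal cover, and EPCAM had 3 members. The AP-1, forkhead and luminal lists were also high for other far-distal sites. A lost peak lay within reach of 73.7% of forkhead, 68.8% of luminal and 45.5% of AP-1 genes, against 35.5% over all genes. For gained peaks these shares were 26.3%, 43.8% and 45.5%, against 23.2%. The higher shares of these lists are thus not particular to stable sites.

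Of 23 genes of the metal response, 4 had a member (17.4%), with 2 at the zinc importer gene SLC39A10 and 1 each at the zinc transporter genes SLC30A1, SLC30A2 and SLC30A4. A lost peak lay within reach of 39.1% of the 23, a gained peak of 34.8% and a resized site of 65.2%. Over all protein-coding genes these shares were 35.5%, 23.2% and 45.7%. The 8 metallothionein genes in the list, whose proteins bind zinc and cadmium and which lie in 1 cluster and so count as 1 locus, and MTF1 itself had 0 members within 100 kb. The share of 17.4% counts these 8 genes singly. Of 12 oxidative stress genes 3 had a member, which is near the share over all genes, namely HMOX1 and TXNRD1 with 2 each and GCLM with 1, and NFE2L2, KEAP1 and NQO1 had 0.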

How the data were processed

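CUT&RUN for MTF-1 was done in 2 control and 2 cadmium libraries. Per the labels and the study's methods, the authors removed adaptor sequence, mapped the reads to hg38 (Bowtie2), merged replicates with SAMtools 1.8 and called broad peaks with Epic2 (listed as SICER 0.0.50 in the submitters' processing notes). In the 2 deposited peak lists used here, the values are peak starts and ends in bp, beside a chromosome name and 1 constant column. No control library is named for the calling, and the lists alone give no depth or replicate spread, so a peak near the threshold can be called in 1 condition alone.

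Overlapping peaks were merged, distances were measured from site centres to 219270 GENCODE 44 starts, and hg38 sequence was read with pysam 0.24.0. Odds ratios were pooled over width bins (open above 3000 bp) with Robins-Breslow-Greenland intervals, in scipy 1.17.1 with two-sided tests and Benjamini-Hochberg adjustment at 0.05. The steps were tested on simulated data. The members, gene lists and tests were chosen with earlier results of these data known. Named genes are the 10 with the most members within 100 kb (ties by summed width) and the leading genes of 8 lists. Alternatives changed 1 choice at a time, and those added after seeing the data are named as such. The example windows for RUNX and forkhead are not reported here. Signal tracks, ATAC-seq and RNA-seq were not used here.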

Additional observations from a re-analysis of the deposited data

How the results depend on the processing

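Members with AP-1 letters were more frequent than among lost and near sites, and members with forkhead letters less frequent than among lost sites, under all alternatives run. Of 165 alternative values for the main comparisons, 132 kept their direction and their side of the threshold or stayed near the reported value. Without strata and with GC strata, AP-1 against gained sites gave 1.08 and 1.06. AP-1 against resized sites gave 1.08 over 20 kb from a start, 1.09 in the narrower band from 0.9 and 0.719 around the bases in both lists. The MRE core against lost sites, not past the test as reported, gave 0.980 in 200 bp, 0.996 over 20 kb, 0.994 in the narrow band, 1.113 with protein-coding starts (past the test), 0.898 with GC strata and 0.888 with width and GC strata. RUNX against lost sites gave 0.998 around the bases in both lists, 0.994 without strata, 0.993 with protein-coding starts and 0.951 in whole sites. The intron share against lost sites gave 0.882 with protein-coding starts. Single results that reversed were the MRE core against gained sites (1.00 without strata, 1.13 and 1.05 with GC strata), forkhead against near sites (0.947 and 0.979 with GC strata), GC content against resized sites (0.976 without strata) CTCF against near sites (1.20 without strata, 1.108 with GC strata), CTCF against resized sites (1.01 in whole bins and with protein-coding starts, 1.39 without strata, 1.103 over 20 kb, 1.42 with GC strata) and the exon share against lost sites (1.29 with protein-coding starts). The cause was not tested.

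The number of members was 2949 over 20 kb from a start and 7693 with protein-coding starts, where the strings called at the centre numbered 44 and 161, and 155 strings of 6 bases were called. AP-1 density at the centre was 2.01 times the rest for 100 bp, 2.07 with whole bins and 2.67 in the narrow band. Members with another within 50 kb were 42.3% with whole bins, 36.3% over 20 kb, 31.8% in the narrow band, 38.5% in single-copy sites, 37.7% under 4000 bp and 50.03% with protein-coding starts, and 20.1% at a reach 4 times shorter. Of the 48 other motif tests, 23 passed as reported, 15 with GC strata and 11 with width and GC strata. No paired analysis was possible because the authors merged the replicates before calling peaks, and for the same reason no replicate could be left out.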
